A study of Mus musculus with 6 samples.

Results

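RNA of 10 acyl-CoA thioesterase genes was examined in iWAT, the inguinal white fat depot, from mice carrying an *Hlx* transgene and from wild-type littermates. The genes are *Acot1*, *Acot2*, *Acot4*, *Acot7*, *Acot8*, *Acot9*, *Acot11*, *Acot12*, *Acot13* and *Them4*. They were taken by symbol from a table of 19445 gene loci, and each had 1 locus there. The samples were iWAT of 3 mice carrying *Hlx*, a homeobox transcription factor, as a cDNA under the *aP2* (*Fabp4*) promoter, which drives expression in fat, and of 3 controls without the transgene, all 12 weeks old and given as male, with no treatment stated. The transgenic lines had been made in C57BL/6 × SJL hybrid embryos and backcrossed to C57BL/6, and the sources used here do not say which line was sequenced. Each mouse gave 1 RNA-Seq library, and the comparison asks how RNA levels differ between iWAT with and without the transgene.

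Acyl-CoA thioesterases split fatty acyl-CoA into a free fatty acid and coenzyme A. They reverse the step by which acyl-CoA synthetases activate fatty acids for oxidation or for lipid synthesis. Their family has a group of α/β-hydrolase fold enzymes, encoded side by side on mouse chromosome 12 (*Acot1* in the cytosol, *Acot2* in mitochondria, *Acot4* in peroxisomes), and a group with the hotdog fold, to which the other members belong. *Acot11* is also known as brown fat inducible thioesterase or Them1. It carries a lipid-binding START domain, as does the cytosolic *Acot12*, which is known from liver and splits acetyl-CoA. *Acot13*, also known as Them2, is found at mitochondria and binds the phosphatidylcholine transfer protein Pctp.

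The sequences before the start sites of *Acot11*, the member with the largest rise, and of the 3 neighbours on chromosome 12, of which 1 rose, are shown to set these genes side by side. Each line gives the 250 bases before an annotated start (RefSeq, build GRCm38.p6, the assembly also called mm10), 5′ to 3′ on the strand of the gene. Capitals mark CACGTG, an E-box, and AGGTCA, the core letters bound by many nuclear receptors, read on either strand.
Acot11, upstream start (chr4:106805008-106805257, - strand): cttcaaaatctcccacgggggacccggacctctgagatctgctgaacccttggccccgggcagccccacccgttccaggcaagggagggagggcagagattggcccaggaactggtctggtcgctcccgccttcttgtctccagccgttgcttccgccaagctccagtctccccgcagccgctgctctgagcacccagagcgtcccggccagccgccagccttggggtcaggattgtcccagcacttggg
Acot11, downstream start (chr4:106799832-106800081, - strand): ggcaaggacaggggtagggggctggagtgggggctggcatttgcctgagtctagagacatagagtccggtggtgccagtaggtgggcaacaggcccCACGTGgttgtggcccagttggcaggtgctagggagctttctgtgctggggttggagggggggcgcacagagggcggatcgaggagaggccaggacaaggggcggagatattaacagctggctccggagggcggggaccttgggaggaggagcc
Acot2 (chr12:83987611-83987860, + strand): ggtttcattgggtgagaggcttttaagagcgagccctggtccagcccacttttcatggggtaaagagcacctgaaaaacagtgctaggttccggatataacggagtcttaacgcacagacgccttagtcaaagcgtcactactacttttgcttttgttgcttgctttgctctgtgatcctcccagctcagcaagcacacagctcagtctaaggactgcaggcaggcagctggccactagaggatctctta
Acot1 (chr12:84009252-84009501, + strand): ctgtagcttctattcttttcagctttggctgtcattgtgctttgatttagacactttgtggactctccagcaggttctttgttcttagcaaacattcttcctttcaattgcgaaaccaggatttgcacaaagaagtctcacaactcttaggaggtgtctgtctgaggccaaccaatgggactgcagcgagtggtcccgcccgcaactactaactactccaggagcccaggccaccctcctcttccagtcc
Acot4 (chr12:84038129-84038378, + strand): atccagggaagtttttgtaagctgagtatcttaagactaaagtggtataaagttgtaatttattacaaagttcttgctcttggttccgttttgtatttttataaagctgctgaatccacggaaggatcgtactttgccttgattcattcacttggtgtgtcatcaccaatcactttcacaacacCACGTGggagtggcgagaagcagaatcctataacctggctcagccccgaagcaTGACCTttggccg
A promoter entry was found for 9 of the 10 members, 10 entries in all, and *Acot13* had none. Over 300 bases, from 250 before to 50 after the start, AGGTCA occurred in 1 entry of *Acot4* and 1 of *Acot12*, that is in 2 of 10 entries, against 16.3% of the 32851 promoters of the same length. CACGTG, which reads the same on both strands and does not overlap AGGTCA in these entries, occurred at the downstream start of *Acot11* and in *Acot4*, against 7.15% of all promoters. The upstream entry of *Acot11* and those of *Acot1* and *Acot2* held neither motif. These are matches of letters only.

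Values were FPKM, that is reads scaled by transcript length and by the mapped reads of the library, so that levels of different genes can be compared. A locus was tested if its mean was over 1 FPKM in at least 1 genotype, and log2 fold changes are differences of mean log2(FPKM + 1), so that a low gene's change comes out too small. The test was limma with Benjamini-Hochberg adjustment over all 11692 tested loci, and a gene is said to have risen or fallen at an adjusted p under 0.05. The absolute depth of the libraries is unknown. Their relative depth, estimated from the spacing of low values, lay between 0.692 and 1.41 times that of wild-type replicate 3. *Hlx* had 79.6 to 109.7 FPKM in transgenic and 6.88 to 8.14 FPKM in wild-type mice, and the values do not separate transgene from endogenous RNA. Adipocyte genes marked the tissue, with summed levels of 6 markers between 23904 and 33447 FPKM in each library, most of it *Fabp4*. Of these, *Adipoq*, which encodes the adipocyte hormone adiponectin, fell from 2481 ± 415 to 1363 ± 89.0 FPKM (SD, n = 3 each; log2 fold change -0.85, limma adjusted p = 0.0172), and the other 5 were not called. Although the labels give males, *Xist* was between 20.2 and 33.6 FPKM in the 6 libraries, while the Y-linked *Ddx3y*, *Eif2s3y*, *Kdm5d* and *Uty* had a listed value of 0 in each. *Xist* RNA without Y-linked RNA is the pattern of female tissue, so the stated sex is in doubt. This holds for both genotypes, so no result can be given without these libraries.

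Of the 9 thioesterase genes tested, *Acot11*, *Acot13*, *Acot2* and *Them4* rose in transgenic iWAT and none fell. Over all tested loci 11.6% rose and 7.03% fell, 18.6% in either direction. The median log2 fold change was 0.35 for the 9 genes and -0.01 for all tested loci. In 6 of the 9 genes every transgenic value was above every wild-type value, against 22.8% of all tested loci, and in *Acot4* every transgenic value was below. In either direction, 7 of the 9 genes and 42.9% of all tested loci did not overlap. With 3 mice against 3, the exact permutation test cannot give a two-sided p under 0.1, and it gave 0.1 for each of these 7 genes. *Acot4* passed the filter on low values through its wild-type mean only, and *Acot12* did not pass it. The rises of *Acot11*, *Acot13* and *Acot2* kept their call in every other setting tried, while that of *Them4* did not.

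**Figure D1:**
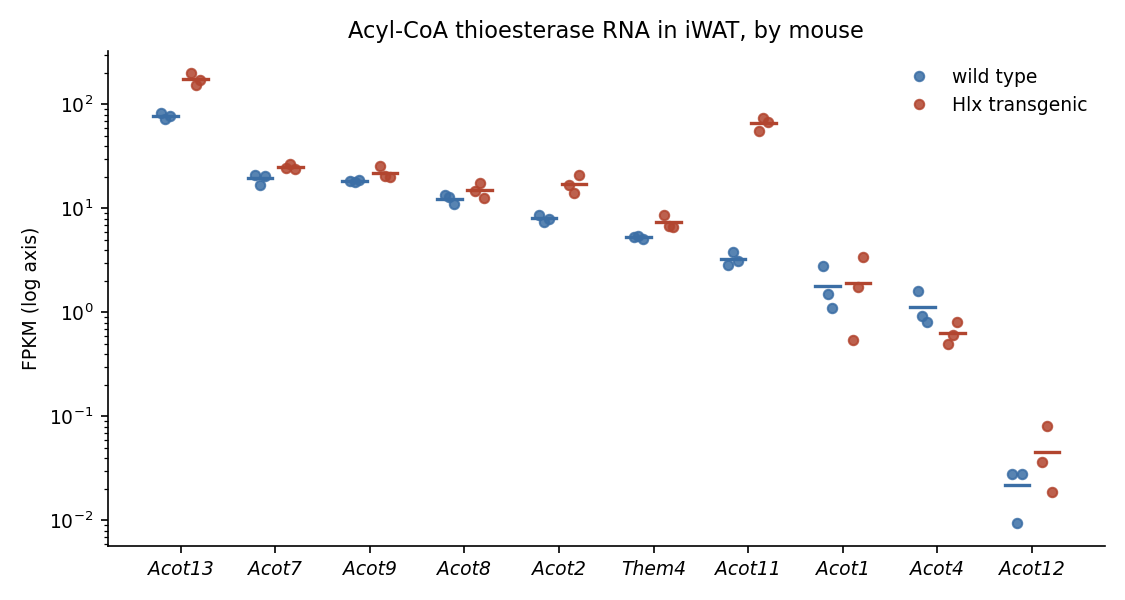
FPKM (log axis) of the 10 thioesterase genes in each of 3 wild-type and 3 transgenic mice, with a bar at the mean of each genotype, ordered by the wild-type mean. *Acot11* moves from 3.29 to 66.1 FPKM on average, *Acot13* is highest in both genotypes, and *Acot1*, *Acot8* and *Acot12* overlap between genotypes.

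*Acot11*, on chromosome 4 from 106733914 to 106805041 (mm10, the coordinates of the deposited locus), had 55.7, 74.5 and 68.1 FPKM in the transgenic mice and 2.88, 3.83 and 3.15 FPKM in the wild-type mice. The genotypes are far apart, and no transgenic value came near the highest wild-type value. The means were 66.1 ± 9.52 FPKM and 3.29 ± 0.494 FPKM (SD, n = 3 each), a ratio of 20.1. *Acot11* had a log2 fold change of 3.96 ± 0.13 (SE; limma adjusted p = 0.000106) and stood at place 6 of the 11692 tested loci ranked by rise. With each mouse left out in turn it stayed between 3.87 and 4.08.

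The *Acot11* locus in the table is written with the same coordinates as that of *Fam151a*. In the GENCODE annotation *Fam151a* lies on the opposite strand and ends inside the 3′ end of *Acot11*, and 15.6% of the 100-base windows of the longest coding *Acot11* transcript, which has 16 exons, also occur in *Fam151a* transcripts. The library kit does not mark strand, so reads from this stretch cannot be told apart. *Fam151a* had 28.1, 29.9 and 20.9 FPKM in transgenic and 0.903, 1.16 and 0.270 FPKM in wild-type mice, and its log2 fold change was 3.96 ± 0.22 (SE; limma adjusted p = 0.000251). It passed the filter through its transgenic mean only. Both neighbours were thus high in the same 3 libraries, and the level of *Acot11* was above that of *Fam151a* in each of the 6.

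*Acot13*, on chromosome 13 from 24817949 to 24831552, was the most abundant member in every mouse. It had 199, 152 and 171 FPKM in the transgenic mice and 83.2, 72.3 and 76.6 FPKM in the wild-type mice. The lowest transgenic value, that of replicate 2, was well above the highest wild-type value. The means were 174 ± 23.8 FPKM and 77.4 ± 5.47 FPKM (SD, n = 3 each), which gave a log2 fold change of 1.15 ± 0.12 (SE; limma adjusted p = 0.00168). None of its 100-base windows occurred in a transcript of another gene. RNA of *Pctp*, whose protein binds Acot13, rose as well, from 6.36 ± 0.549 to 11.0 ± 1.72 FPKM (SD, n = 3 each; log2 fold change 0.70, limma adjusted p = 0.0101).

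*Acot2*, the mitochondrial member of the chromosome 12 group, lies from 83987619 to 83993875. It had 16.8, 14.0 and 20.9 FPKM in transgenic and 8.63, 7.48 and 7.96 FPKM in wild-type mice. The genotypes did not overlap, and the transgenic mice varied more than the controls. It rose by 1.00 ± 0.14 on the log2 scale (SE; limma adjusted p = 0.0047), with means of 17.2 ± 3.45 and 8.02 ± 0.575 FPKM (SD, n = 3 each).

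Its neighbour *Acot1*, from 84009501 to 84017669, encodes the cytosolic enzyme. *Acot1* had 0.542, 1.77 and 3.40 FPKM in transgenic and 2.79, 1.51 and 1.11 FPKM in wild-type mice. The lowest and the highest value of the 6 were both in transgenic mice. The log2 fold change was -0.03 (limma adjusted p = 0.962). Its 95% interval ran from -0.96 to 0.90, so a change within that range in either direction remains possible. The sign was positive in 4 other settings, among them without transgenic replicate 1 (0.36) and without wild-type replicate 1 (0.21).

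*Acot1* and *Acot2* share sequence. Of the 100-base windows of *Acot2*, 17.1% occur in *Acot1*, and of those of *Acot1*, 16.5% occur in *Acot2*. The split of reads between them is thus uncertain at these stretches. With all other genes counted, 21.9% of the *Acot1* windows occur elsewhere. With FPKM of both genes summed, an alternative chosen after seeing the data, the log2 fold change was 0.88 (limma adjusted p = 0.0144). The ratio of *Acot2* to *Acot1* was 31.0, 7.90 and 6.14 in transgenic mice and 3.09, 4.97 and 7.19 in controls, with overlap. The difference of the mean log2 ratios was 1.25 (two-sided exact permutation p = 0.2, smallest possible 0.1), so a difference in response between the neighbours was not shown.

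*Acot4*, from 84038212 to 84046380, encodes a peroxisomal enzyme. It was low in all mice, with 0.492, 0.610 and 0.806 FPKM in transgenic and 1.61, 0.932 and 0.814 FPKM in wild-type mice. Every transgenic value was below every wild-type value, although the highest transgenic and the lowest wild-type value lay close together. Its log2 fold change was -0.36 ± 0.18 (SE; limma adjusted p = 0.19). Of its 100-base windows 8.85% occur in another gene, nearly all in a transcript of the opposite strand. Transgenic replicate 3 was the highest transgenic mouse for each of these 3 neighbours, and wild-type replicate 1 the highest control.

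**Figure D2:**
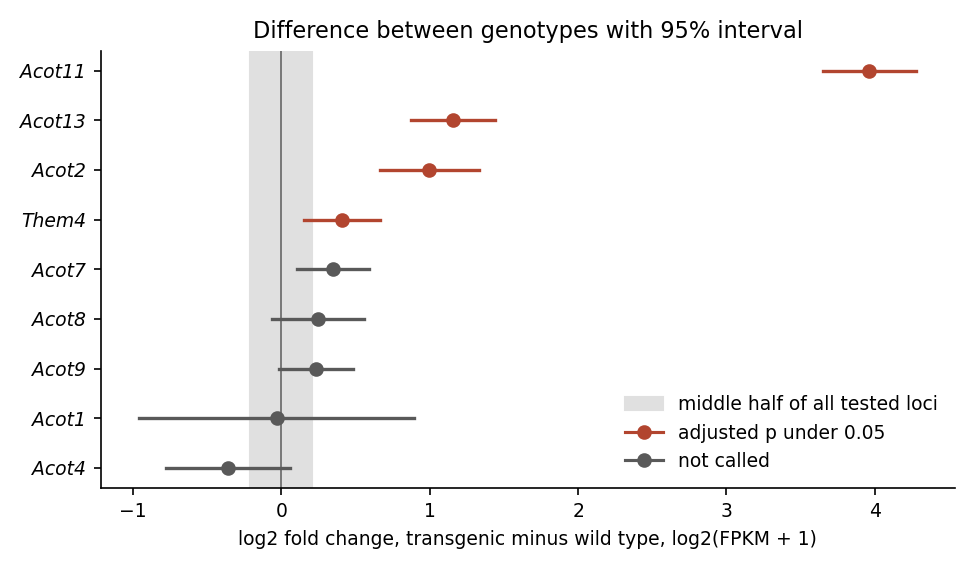
Log2 fold change on the log2(FPKM + 1) scale (transgenic minus wild type) of the 9 tested thioesterase genes, with 95% intervals from limma and the range from the lower to the upper quartile of all tested loci in grey (-0.21 to 0.21). *Acot11* at 3.96 lies apart from *Acot13* and *Acot2* near 1.15 and 1.00, and the interval of *Acot1* is the widest.

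*Them4*, on chromosome 3 from 94310131 to 94332532, encodes a mitochondrial thioesterase that was first described as a binding partner of the kinase Akt. It had 8.66, 6.77 and 6.66 FPKM in transgenic and 5.28, 5.41 and 5.13 FPKM in wild-type mice. All 3 transgenic values were higher, with replicate 1 above the other two. The difference was 0.41 ± 0.11 on the log2 scale (SE; limma adjusted p = 0.0422). At the same threshold it no longer passed in 8 of 14 other fits, including each of the 6 that leave out a mouse. The adjusted p lay between 0.036 and 0.12 over these fits. It also missed the stricter calls, an adjusted p under 0.01 and a 2-fold ratio of means (its ratio was 1.40).

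*Acot7*, the cytosolic enzyme best known from brain, lies on chromosome 4 from 152178099 to 152271855. It had 24.3, 26.6 and 24.0 FPKM in transgenic and 21.1, 16.8 and 20.3 FPKM in wild-type mice, without overlap. Its log2 fold change of 0.35 ± 0.10 (SE) missed the threshold (limma adjusted p = 0.0552) and passed it with sample quality weights (adjusted p = 0.0356).

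*Acot9*, a mitochondrial enzyme on chromosome X from 155262421 to 155297618, had 25.6, 20.4 and 19.9 FPKM in transgenic and 18.4, 18.0 and 18.9 FPKM in wild-type mice. The transgenic values were all above the controls, 2 of them by little. Its difference on the log2 scale was 0.23 (limma adjusted p = 0.161, 95% interval from -0.02 to 0.48). *Acot10*, an intronless copy of *Acot9* on chromosome 15, had 12.6, 11.0 and 11.6 FPKM against 9.15, 8.45 and 8.60 FPKM and rose (log2 fold change 0.39, limma adjusted p = 0.0183). The transcripts are identical at 96.0% of aligned bases, but only 0.968% of the 100-base windows of *Acot9* occur in *Acot10* exactly. Summed, an alternative chosen after seeing the data, the pair differed by 0.30 on the log2 scale (limma adjusted p = 0.07).

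*Acot8*, a peroxisomal enzyme on chromosome 2 from 164785924 to 164804904, had 14.8, 17.6 and 12.6 FPKM in transgenic and 13.4, 12.8 and 11.1 FPKM in wild-type mice. The genotypes overlapped. Its difference on the log2 scale was 0.25 (95% interval from -0.06 to 0.56, limma adjusted p = 0.218). Its locus has the coordinates of that of *Snx21* on the other strand, which shares 13.8% of its windows and whose log2 fold change was 0.04 (limma adjusted p = 0.797). *Acot12*, on chromosome 13 in a locus from 91461096 to 91786148 that the table also gives for *Ssbp2*, had between 0.00941 and 0.0804 FPKM in the 6 mice and was not tested. It was thus near 0 in iWAT of both genotypes, and no fold is given.

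The order of levels within the family differed between genotypes at 1 place above all. In wild-type mice *Acot13* was followed by *Acot7*, *Acot9*, *Acot8*, *Acot2*, *Them4*, *Acot11*, *Acot1*, *Acot4* and *Acot12*, and the values of *Acot7* and *Acot9* overlapped, as did those of *Acot1* and *Acot4*. In transgenic mice *Acot11* held place 2 instead of place 7. *Acot7*, *Acot9*, *Acot2* and *Acot8* followed, each overlapping the next in this order, then *Them4*, *Acot1*, *Acot4* and *Acot12*, with overlap between *Acot1* and *Acot4*.

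Summed over the 10 genes, thioesterase RNA came to 346, 314 and 327 FPKM in the transgenic and 157, 139 and 145 FPKM in the wild-type mice, 2.24 times as much on average. *Acot13* held 52.7% ± 4.61 of the sum in transgenic and 52.6% ± 0.499 in wild-type mice (SD, n = 3 each), while the share of *Acot11* was 20.2% ± 3.83 against 2.25% ± 0.469. Of the difference between the mean sums, *Acot13* made up 53.2% and *Acot11* 34.4%. Without these 2 genes the sums were 89.1 ± 1.85 and 66.5 ± 4.28 FPKM (SD, n = 3 each), a ratio of 1.34. The members were chosen with results known, so these sums are given without a test.

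**Figure D3:**
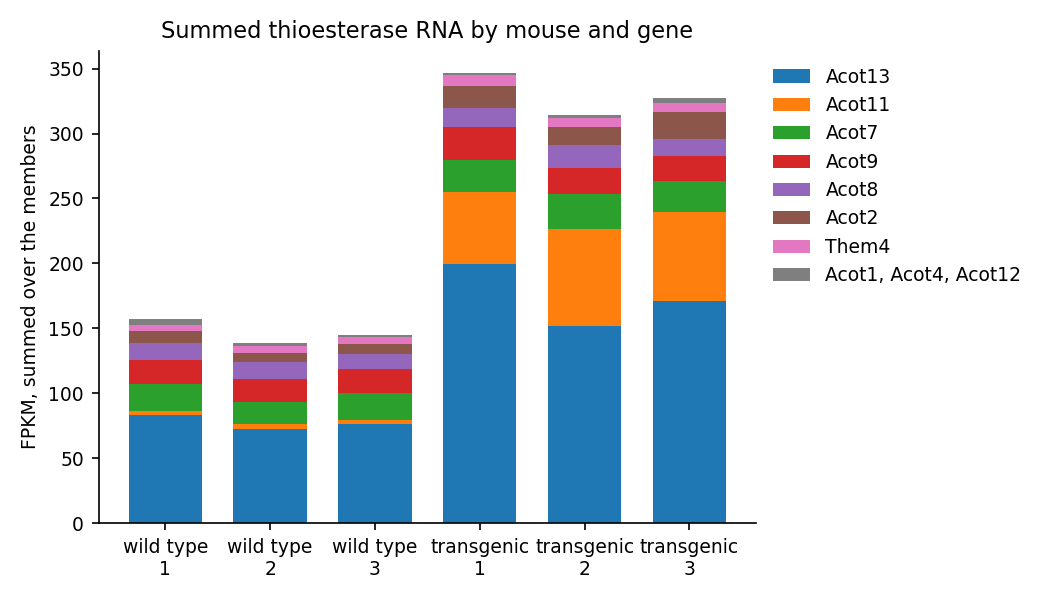
FPKM summed over the 10 thioesterase genes in each mouse, stacked by gene, with *Acot1*, *Acot4* and *Acot12* pooled at the top. The 3 transgenic bars reach 314 to 346 FPKM and the 3 wild-type bars 139 to 157 FPKM, and *Acot11* is a thin band in the wild-type mice.

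Genes that make, carry or use acyl-CoA were set beside the thioesterases. Of 23 acyl-CoA synthetase genes, which activate fatty acids, 16 were tested, 6 rose and 1 fell, with a median log2 fold change of 0.22. Over all tested loci 11.6% rose and 7.03% fell, so a single fall among 16 is near the share of falls. The largest rises were those of *Slc27a2*, a very long-chain acyl-CoA synthetase (3.09, limma adjusted p = 0.00207), and *Acsm3*, a medium-chain synthetase (2.18, adjusted p = 0.0103). *Slc27a2* passed the filter through its transgenic mean only. *Acsm5*, another medium-chain synthetase, fell from 4.82 ± 0.861 to 2.36 ± 0.386 FPKM (SD, n = 3 each; log2 fold change -0.79, adjusted p = 0.012). *Acsl1*, the most abundant synthetase of the list, had 687 to 733 FPKM in transgenic and 538 to 742 FPKM in wild-type mice and differed by 0.23 on the log2 scale (adjusted p = 0.298).

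The carnitine genes, which encode carnitine acyltransferases and carriers, had a median log2 fold change of 0.70. Of 8 listed, 7 were tested and *Cpt1b* was not analysed here. Of these 7, 5 rose, against 11.6% of all tested loci. The 5 that rose were *Slc25a20*, the carrier of the inner membrane (1.77), *Cpt2* (1.30), *Crat* (0.73), *Slc22a5*, the carnitine importer (0.70), and *Crot* (0.65), with limma adjusted p between 0.00102 and 0.0249. *Cpt1a*, which makes acylcarnitine at the outer membrane, differed by -0.28 (adjusted p = 0.397). Among acyl-CoA binding proteins, which buffer the acyl-CoA pool, 0 of 5 tested genes were called with limma, and 1, *Acbd5*, had an unadjusted p under 0.05. *Dbi*, the abundant member, had 3909 to 5174 FPKM in transgenic and 3234 to 3759 FPKM in wild-type mice, without overlap (log2 fold change 0.32, adjusted p = 0.276).

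Of 15 other hydrolases of thioesters, 8 were tested, with a median of 0.22, and 4 rose, against 11.6% of all tested loci. The 4 that rose were *Hibch* of valine breakdown (1.00), *Lypla1* (0.72) and *Ppt2* (0.50), which act on palmitoylated substrates, and *Acot10*. *Acot6*, a further gene of the chromosome 12 group, differed by -0.21 on the log2 scale (limma adjusted p = 0.313), and *Acot3* and *Acot5* of the same group had at most 0.0824 FPKM in any mouse. *Acot1* and *Acot2* are known targets of PPARα, and whether it acted on them in these mice was not tested. Of 14 genes in a list of *Ppara* and its known targets, 12 were tested, with a median of 1.23. Of these 12, 8 rose and 0 fell, against 11.6% and 7.03% of all tested loci. This list, like the others, was chosen with earlier results of these data known. The largest rises were those of *Pdk4*, which restrains pyruvate oxidation (3.40, adjusted p = 0.000231), and *Fabp3*, a fatty acid binding protein (3.03, adjusted p = 0.00119), which passed the filter through its transgenic mean only. *Ppara* itself had 27.1, 27.8 and 43.0 FPKM in transgenic and 6.17, 2.54 and 4.85 FPKM in wild-type mice (log2 fold change 2.63, limma adjusted p = 0.00192).

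**Figure D4:**
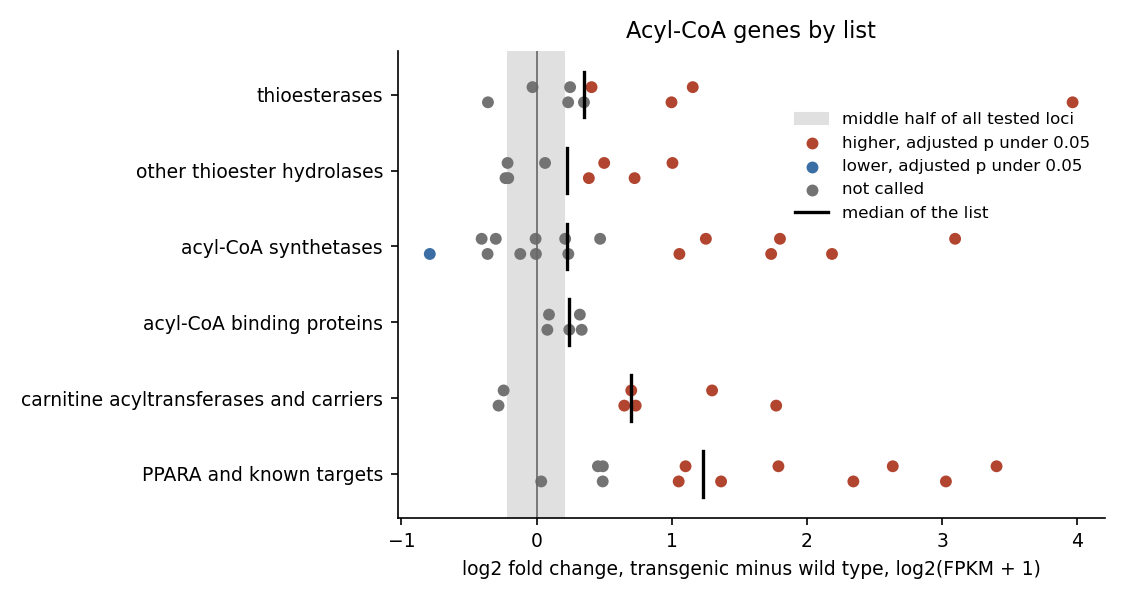
Log2 fold change on the log2(FPKM + 1) scale of each tested gene of 6 lists, coloured by call, with the median of each list as a black line and the range from the lower to the upper quartile of all tested loci in grey. The thioesterase median is 0.35, that of the carnitine genes 0.70 and that of the PPARα list 1.23, and *Acsm5* is the only gene called lower.

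The genes whose pattern was most like that of *Acot11* were, by Pearson's r of log2(FPKM + 1) over the 6 samples, *Nubp2*, *Zdhhc7*, *Gnao1*, *Sh3bgr* and *Celf1*, with r between 0.995 and 0.999. They had log2 fold changes of 0.27, 0.15, 1.65, 1.06 and 0.54. In all, 23 loci had r over 0.99. The 6 points fall into the 2 genotypes, and this is a description of these libraries only.

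Some markers of cells other than white adipocytes moved with genotype or with single mice. Over all tested loci 11.6% rose and 7.03% fell. Of 7 brown adipocyte markers 6 rose, with a summed level of 6127 to 7930 FPKM in transgenic and 611 to 1051 FPKM in wild-type mice. Of 5 macrophage markers tested 3 fell, and their summed level was 478 to 692 against 917 to 1232 FPKM. Of 8 lymphocyte markers 1 fell, *Ms4a1* of B cells (-0.76, limma adjusted p = 0.0361), which is near the share over all tested loci. The lymphocyte sums were 353 to 487 against 474 to 686 FPKM. Of 5 endothelial markers 2 rose, *Emcn* (0.50, adjusted p = 0.0222) and *Kdr* (0.35, adjusted p = 0.0329). Without a call, *Pecam1* (-0.09, adjusted p = 0.632) and *Tek* (-0.11, adjusted p = 0.429) lay lower and *Cdh5* (0.29, adjusted p = 0.0987) higher. The endothelial sums were 140 to 148 against 124 to 134 FPKM. In each of these comparisons the transgenic range is given first.

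Epithelial and mammary markers summed to 164 to 346 FPKM in transgenic and 271 to 393 FPKM in wild-type mice, with 0 of 9 tested called by limma, 2 at an unadjusted p under 0.05 and *Wap* at 0 in all mice. Of the genes known from nerve and Schwann cells, *S100b* rose from 2.98 ± 0.603 to 62.1 ± 28.6 FPKM (SD, n = 3 each; log2 fold change 3.90, limma adjusted p = 0.000715) and *Mbp*, a myelin protein, from 16.05 ± 2.38 to 23.7 ± 2.47 FPKM (0.54, adjusted p = 0.0262). The rest of this list is not reported here. *Acot7*, known from brain, lay higher in the transgenic mice without a call, and a link to these genes was not tested. Its highest transgenic value was in replicate 2, where *S100b* was lowest among the transgenic mice (37.4 FPKM).

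Of 10 skeletal muscle markers 0 were called by limma, 2 had an unadjusted p under 0.05, and their median log2 fold change was 2.12. In every mouse but transgenic replicate 2 most of their sum came from *Tnnt3*, which the table gives in 1 locus with *Lsp1*. Without that locus, a choice made after seeing the data, the sums were 99.5, 705 and 135 FPKM in transgenic and 7.52, 146 and 37.3 FPKM in wild-type mice. Transgenic replicate 2 stood far above the others and the genotypes overlapped, while each of these 9 markers had a higher transgenic mean, by 3.99 to 23.3 times. The largest ratio was that of *Myh2*, which had a wild-type mean of only 0.0569 FPKM. Its transgenic values were 0.0444, 3.67 and 0.275 FPKM, so this ratio rests mostly on replicate 2. *Myh1* and *Myh2* passed the filter through their transgenic means only. Transgenic replicate 2 had the highest transgenic value of *Acot11*, *Acot7* and *Acot8* and the lowest of *Acot13* and *Acot2*. Without it the log2 fold changes of *Acot11*, *Acot13* and *Acot2* were 3.87, 1.25 and 1.13. The muscle sums of the remaining mice were still uneven, 99.5 and 135 against 7.52, 146 and 37.3 FPKM. The part of muscle or of the other marked cells in these results was not tested. In whole tissue fewer cells of a type and less RNA per cell cannot be told apart.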

How the data were processed

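RNA-Seq of iWAT from 3 *Hlx* transgenic and 3 wild-type mice was used. The authors mapped single-end reads of 100 bases to mm10 and deposited 1 FPKM value per gene locus and mouse. The submitters' processing notes name CASAVA 1.8.2, TopHat2 2.0.9, Bowtie2 2.1.0 and Cufflinks 2.2.1. The annotation and the options are not given in the sources used here. FPKM gives no read counts, so no count test was run, and low values are less precise in the shallower libraries.

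Loci whose mean exceeded 1 FPKM in either genotype were tested on log2(FPKM + 1) with limma 3.58.1 in R 4.3.3 (eBayes with trend, two-sided, Benjamini-Hochberg adjustment over all of them, no covariates). The procedure was tested on simulated data. Single genes also had an exact permutation test over 20 arrangements. Groups came from the sample titles. Replicate numbers name different animals, and the deviations of same-numbered mice correlated at 0.01 to 0.07, so mice were not paired.

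The text names all 10 members, the largest called changes of each related list, genes that overlap members, and the genes most like *Acot11*. *Acsl1*, *Cpt1a*, *Dbi*, *Acot3*, *Acot5*, *Acot6* and *Ppara* were added after their values were seen. Members and lists were chosen with earlier results of these data known. The list of nerve markers is given only in part, and the rest of it is not reported here. Windows of 100 bases and exon numbers came from GENCODE M21 transcripts of the same build. Alternatives were other filters, pseudocount 0.1, 2 scalings, eBayes without trend, sample quality weights, a replicate block, leaving out each mouse and stricter calls. Figures were drawn with matplotlib 3.10.9.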

Additional observations from a re-analysis of the deposited data

How the results depend on the processing

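The number of thioesterase genes that rose was 4, between 3 and 5 in the other settings (5 with sample quality weights, which add *Acot7*), and none fell in any. *Acot11*, *Acot13* and *Acot2* stayed called throughout, with log2 fold changes from 3.87 to 4.29, 0.99 to 1.25 and 0.86 to 1.13. The sign of *Acot1*, never called, turned with quantile normalization (0.042), sample quality weights (0.32), without transgenic replicate 1 (0.36) and without wild-type replicate 1 (0.21). With each mouse left out it ranged from -0.39 to 0.36, and the cause was not tested. With the replicate block 1230 loci rose and 656 fell, *Them4* lost its call (adjusted p = 0.0636) and the other 3 thioesterases kept theirs.

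Over all loci, 1352 rose and 822 fell. These counts were 748 and 381 with no filter, where more loci were tested, 569 and 199 at an adjusted p under 0.01, and 413 and 204 with at least a 2-fold ratio of means. With each mouse left out they ranged from 780 to 1295 and from 329 to 906. For rises, leaving out transgenic replicate 3 (812), wild-type replicate 2 (851) or wild-type replicate 3 (780) moved the count by over 1.5 times, and for falls so did transgenic replicate 1 (470), transgenic replicate 3 (329) and wild-type replicates 1, 2 and 3 (493, 424 and 400). Of the related lists, the single fall became 0 with no filter, 0 at an adjusted p under 0.01 and 2 with eBayes without trend, and the cause was not tested. The filter on the mean of all samples leaves *Acot4* out. Levels under 1 FPKM, as of *Acot4* and *Acot12*, are limited by depth.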
